A study of Arabidopsis thaliana with 4 samples.

Results

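The genes described here were expressed in wild type seedlings of Arabidopsis thaliana and had the largest drop in signal in seedlings labelled as a CDB1 knockout. They were chosen from the measured values. A probe set (the group of probes that reads one transcript) had to name exactly 1 gene, to have a wild type mean signal of 20 or more, and to read lower on each knockout array than on either wild type array. Of 22746 non-control probe sets, 13513 named 1 gene, 8799 of these were bright enough, and 1609 of these (18.3%) met the order. They were ranked by the knockout minus wild type mean of log2(signal + 16) and the first 100 were taken. The calmodulin-like genes CML23 and CML38, the ubiquitin ligase genes PUB19 and PUB23, and AT1G16850 were then left out by name, which left 95 members. Because the difference between the groups chose the members, the differences below describe these 4 arrays and are given without a test.

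RNA was total RNA from whole seedlings at developmental stage 1.02, grown in 16 h days at 20 °C and a humidity of 80%, and was read on Affymetrix ATH1 arrays. The knockout group (2 arrays) carries what the labels call a complete CDB1 knockout, made in Col-0, with no allele named, and it is set against the Col-0 wild type (2 arrays). The series title names a Polycomb binding protein, and the question put to the arrays was how transcript levels change when CDB1 is missing. No annotation used here ties the name CDB1 to a gene, so the targeted transcript could not be checked. Nothing in the labels says that replicates came from separate cultures, so the spread between them may be technical.

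Polycomb proteins keep developmental genes silent by marking their chromatin. Seedlings also hold genes of a very different kind, which respond within minutes to touch, wounding, cold or microbial elicitors, often after a pulse of calcium in the cell. Zinc finger and AP2/ERF transcription factors, calcium-binding proteins and ubiquitin ligases are typical products of such early genes, and their transcripts are short-lived. STZ, ORA47 and AT4G27280 among the members are known from such responses.

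All values are MAS5 signals (arbitrary units) as the authors scaled them. As differences are on the log2(signal + 16) scale, they understate the change of dim genes. Fewer cells of a type and less RNA per cell cannot be told apart in whole seedlings. Signal of both root and leaf markers was found, as the label of whole seedlings implies. The listed seed, guard cell and phloem markers had no named probe set. The 3 of 7 root markers that could be named summed to 2659 and 2976 on the knockout arrays and to 3046 and 2699 on the wild type arrays, which overlap. Nearly all of this sum is PYK10, and the other two lay higher on both knockout arrays. EXPA7 was at 55.9 on each knockout array and at 28.7 and 50.3 in wild type, and EXPA18 at 58.5 and 60.9 in the knockout and 51 and 49.5 in wild type. The 2 of 7 green leaf markers that could be named summed to 4494 and 4493 in the knockout and to 4190 and 3859 in wild type. LHCB4.1 lay higher on both knockout arrays, at 2064 and 1808, against 1518 and 1568 in wild type, while RCA overlapped, at 2430 and 2685 in the knockout and 2672 and 2292 in wild type. None of these markers was at 0. Among the RNA quality controls, the older actin probe sets gave ratios of 3′ over 5′ signal of 5.01 and 4.85 in the knockout and 9.42 and 7.24 in wild type, again without overlap. With the newer actin probe sets it was 2.49 and 1.90 in the knockout and 1.83 and 2.51 in wild type, which overlap. The part of root and leaf shares and RNA quality in the results below was not tested.

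Most members differed modestly, and a few stood far below the rest. The median log2 difference of the 95 members was -0.57, beside -0.02 over all 8799 named probe sets that were bright enough. It was at or below -1 for 7 members and at or below -0.6 for 36. The first in rank, AT5G27280, was at -3.11 and the next at -1.33. Among the 100 ranked probe sets, the 10th was at -0.98, the 50th at -0.57 and the 100th at -0.48. The same rule turned round, with a knockout mean of 20 or more and all knockout signals above all wild type signals, gave 1.33 for its second probe set, 0.98 for its 10th, 0.57 for its 50th and 0.47 for its 100th. Apart from AT5G27280, the ranked sets of lower and of higher genes were therefore of like size at these ranks. Just inside the limit lay AT5G37980, AT2G20142 and AT1G29180, each at -0.48. AT4G12490 and APL3, at -0.48, and AT4G36010, at -0.47, lay just outside, so the limit marks no break in the values.

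**Figure D1:**
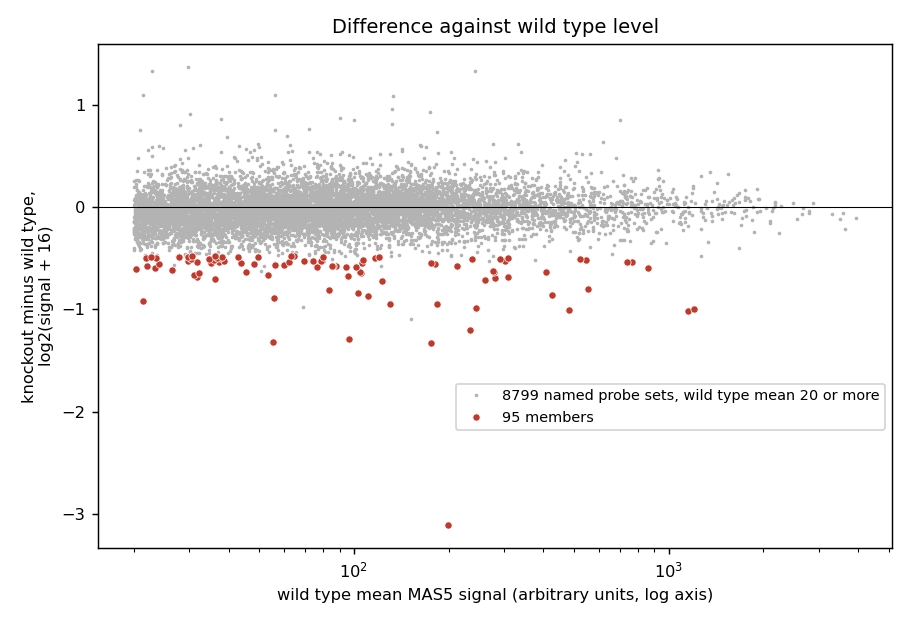
Difference between the groups (vertical axis, knockout minus wild type, log2 scale) against the wild type mean signal (horizontal log axis) for 8799 named probe sets in grey and the 95 members in red. The members form the lower edge of the cloud up to a wild type mean of 1207, and AT5G27280, at -3.11, lies alone.

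The members were found at low and high signal alike. Their wild type means ran from 20.3 to 1207 with a median of 79.3, and the median over all 8799 was 76.1. A wild type mean under 50 was found for 34 members, or 35.8%, beside 32.8% of the 8799. For 20 members both knockout signals lay below 19.5, the 30th percentile of mean signal on these arrays and the limit of the model fit below, so the size of their difference is uncertain. Summed over all members, the signal was 9116 and 9090 on the knockout arrays, against 15528 and 15978 on the wild type arrays. Within each group the 2 arrays thus gave nearly the same sum.

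A limma model fitted over 15924 probe sets called 24 lower in the knockout, which is 0.151% (adjusted p of 0.05, Benjamini-Hochberg), and 51 in either direction (0.32%). Of the 95 members, 86 were bright enough to enter that fit, and 10 were among its calls. As the same contrast chose the members, nothing is read from this count. It was 17 without wild type replicate 1 and 4 without knockout replicate 2, and the 51 calls became 87 without wild type replicate 1, 23 without knockout replicate 1 and 20 without knockout replicate 2. The separation of single members from the replicate spread can be described directly. The gap between the lower wild type array and the higher knockout array exceeded the gap between replicates in both groups for 57 of 95 members (60%), beside 28.8% of the 1609 probe sets with the same order. The rule ranked the members by the difference between the groups, so nothing is read from the contrast of these shares. Among members with a wild type mean of 100 or more the gap was the wider one in 30 of 39, and among those under 50 in 14 of 34. This difference was not tested. The 28.8% of the 1609 was not split by signal, so the difference is not read as a trait of the members. The median gap between replicates was 0.16 in the knockout and 0.18 in wild type for the members, and 0.15 in the knockout and 0.17 in wild type for the 8799.

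**Figure D2:**
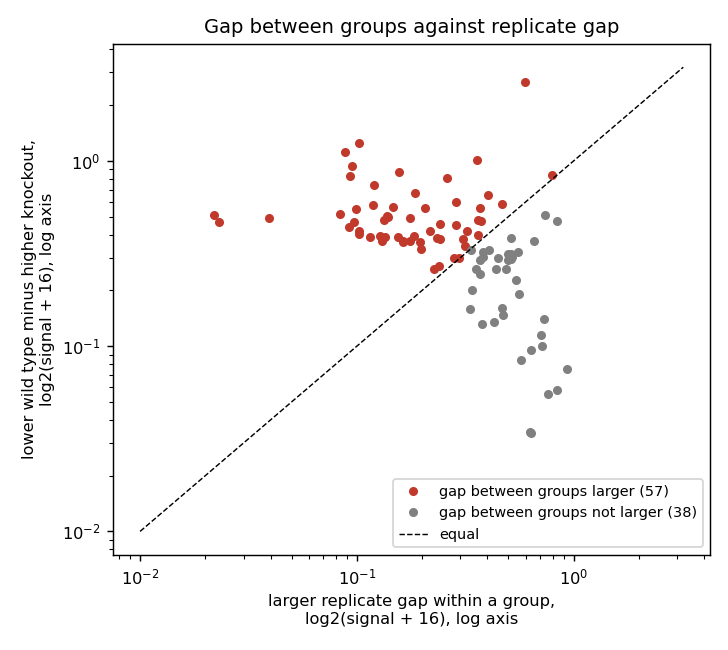
Gap between the groups (vertical log axis, lower wild type minus higher knockout array) against the larger of the 2 replicate gaps (horizontal log axis), both on the log2(signal + 16) scale, for 95 members. The 57 members above the dashed line of equal gaps, in red, are separated by more than the replicate spread, and the 38 grey ones are not.

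AT5G27280, on chromosome 5, codes for a Zim17-type zinc finger protein, a class that in yeast keeps the mitochondrial Hsp70 chaperone soluble. Its signal was 4.1 and 14.4 on the knockout arrays, against 175 and 222 on the wild type arrays. Both knockout values lie below the 30th percentile of mean signal, and both wild type values far above it. The log2 difference was -3.11, and with 16 added to each signal the knockout was 8.64-fold lower. Over pseudocounts, scalings and left-out arrays it ranged from -4.48, with a pseudocount of 1, to -1.84, with a pseudocount of 64. The next gene on the chromosome with a named probe set, AT5G27290, read 84.4 and 85.6 in the knockout and 88.9 and 86.5 in wild type. The low signal thus did not extend to this neighbour.

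Other members known as organelle proteins were less far apart. AT3G29970, of the B12D family of small proteins found in mitochondria in rice, read 322 and 296 in the knockout and 497 and 610 in wild type, a difference of -0.80. The pentatricopeptide repeat gene AT2G15690, of a class that acts on organelle RNA, was at 45.8 and 71.9 in the knockout and at 163 and 97.6 in wild type. Its wild type arrays differ more from each other than the nearer one does from the knockout, and the difference of -0.95 was -0.62 without wild type replicate 1 and -0.70 without knockout replicate 1. AT3G44370, of the Oxa1 family of membrane insertases, was at 15.1 and 15.5 in the knockout against 28.2 and 27.5 in wild type.

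**Figure D3:**
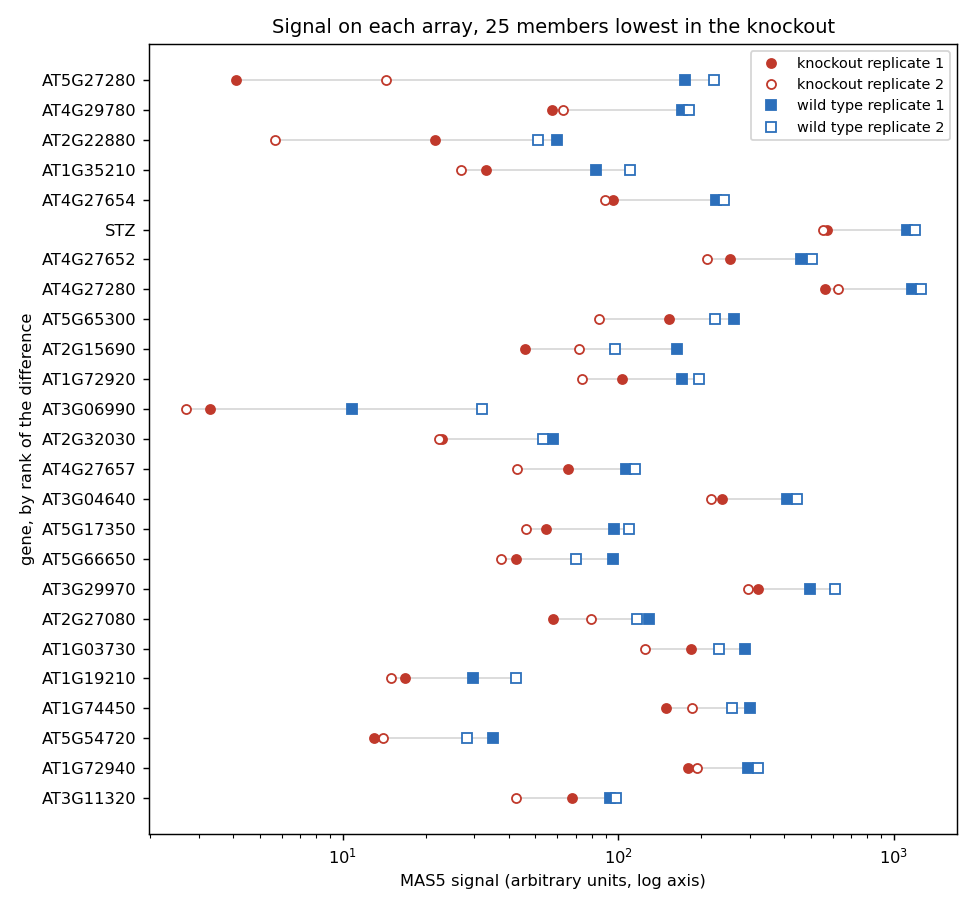
MAS5 signal (horizontal log axis) on each of the 4 arrays for the 25 members lowest in the knockout, in rank order, with knockout replicates as red circles and wild type replicates as blue squares (replicate 2 open). No member overlaps between the groups, by construction, and the distance between the colours is widest for AT5G27280 and narrowest for AT1G03730.

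Regulators of gene expression gave 7 members, with differences from -1.32 to -0.49. Among them is STZ (also called ZAT10), a C2H2 zinc finger repressor induced by salt, cold and wounding. STZ read 574 and 553 in the knockout, against 1117 and 1194 in wild type. The replicates lay close together in both groups, with means of 563 ± 15.1 in the knockout and 1156 ± 54.6 in wild type (SD, n = 2 each), and the difference was -1.02. It stayed between -1.06 and -0.96 under all settings tried. AT2G22880 encodes a VQ motif protein, of a class that binds WRKY transcription factors. Its signals were 21.6 and 5.7 in the knockout and 59.8 and 51.1 in wild type, a difference of -1.32. Knockout replicate 2 was close to the lowest signals on the array, and the difference ranged from -2.19 to -0.63 over the settings. 2 members are AP2/ERF transcription factors. ORA47, an activator of jasmonate synthesis genes, was at 53.3 and 70.6 in the knockout and at 99.6 and 109.7 in wild type. AT1G19210, a less studied member of that family, was at 16.8 and 15 in the knockout against 29.7 and 42.7 in wild type, with differences of -0.64 and -0.70 for the pair.

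AT3G52800, an A20/AN1 zinc finger protein of the stress-associated class, read 349.8 and 377 in the knockout and 539.7 and 502 in wild type. This is a small difference (-0.50) but wider than the replicate gaps. AT5G59450, a GRAS family transcription factor, stood at 53.6 and 50.6 in the knockout against 74 and 85.6 in wild type. NRPE7, a subunit of the plant-specific RNA polymerase of RNA-directed DNA methylation, was at 20.8 and 31.6 in the knockout and at 42.2 and 43.5 in wild type. Its knockout replicates differed from each other by more than the groups did at their nearest arrays.

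Calcium is represented by 3 members, all separated by more than the replicate gaps. AT4G27280, a small EF-hand calcium-binding protein gene, had the highest wild type mean signal of all members. Its signal was 563 and 629 in the knockout, against 1161 and 1252 in wild type, which is 2-fold lower. The EF-hand gene AT5G39670 was at 142 and 133 in the knockout and at 211 and 214 in wild type, with a difference of -0.57. AT5G66650, of the calcium uniporter family that carries calcium into organelles, was at 42.7 and 37.5 in the knockout and at 95.6 and 70.5 in wild type (-0.81). Wild type replicate 1 was the higher array for this gene and replicate 2 the higher one for both EF-hand genes.

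Defence type proteins gave 9 members, from -0.95 to -0.48. 4 of them carry a TIR domain, the signalling module of a major class of plant immune receptors. AT1G72920 read 103 and 73.9 in the knockout and 171 and 196 in wild type, a difference of -0.95. Its near neighbour AT1G72940 was at 179.9 and 193 in the knockout against 295 and 322 in wild type (-0.68). AT1G72950, the next gene, was at 16.2 and 22.3 in the knockout against 26.4 and 42.7 in wild type, and its groups nearly touched. The fourth, AT2G20142, lies elsewhere, on chromosome 2, and was at 37.5 and 43.9 in the knockout and at 61.4 and 64.5 in wild type. AT2G27080, of the NDR1/HIN1-like family of membrane proteins that includes regulators of disease resistance, read 57.9 and 79.7 in the knockout and 129 and 117 in wild type (-0.72). The ankyrin repeat genes AT5G54720 and AT1G14480 stood at 13 and 14 in the knockout against 35 and 28.2 in wild type and at 39.2 and 31.5 in the knockout against 62.3 and 57.8 in wild type. In both ankyrin genes the replicates were closer together than the groups. For AT1G78780, a pathogenesis-related family gene, and AT1G72460, a leucine-rich repeat receptor kinase gene, they were not.

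Protein turnover was the group given to 6 members, among them AT3G02840, which is named only for armadillo repeats. In each of the 6 the groups were further apart than the replicates. BETA-VPE, a vacuolar cysteine protease that processes storage proteins, was at 165 and 183 in the knockout, against 266 and 288 in wild type (-0.63). AT1G20823, a RING finger gene of the ubiquitin ligase type, read 124 and 112 in the knockout and 179 and 182 in wild type (-0.56). The remaining 4 genes had wild type signals no higher than 41.5. AT3G02840, an armadillo repeat gene, was at 24 and 18.9 in the knockout against 34.4 and 38.9 in wild type, and the F-box gene AT4G35120 at 7.5 and 8.1 in the knockout against 15.8 and 24.9 in wild type. The U-box gene AT5G09800 and the aspartyl protease gene AT5G10770 both differed by -0.48.

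Cell wall and secreted proteins gave 6 members. AT3G04640, which encodes a glycine-rich protein, read 238 and 218 in the knockout, against 409 and 445 in wild type. The difference of -0.86 was the largest of the group, and its replicates lay close together. The pectin methylesterase inhibitor genes AT1G62770 and AT2G01610, whose products limit the de-esterification of pectin, had differences of -0.55 and -0.53. AT1G62770 was at 112 and 117 in the knockout and at 169 and 182 in wild type, a wider gap than between replicates, while AT2G01610 was at 44.3 and 41.6 in the knockout and 79.5 and 59.7 in wild type, where the wild type replicates were further apart. AT3G16670, an Ole e 1 type extracellular protein gene, was at 460.4 and 587 in the knockout against 857 and 677 in wild type, with a wide spread in both groups. AT5G37690, a GDSL lipase gene, and AT5G26670, a pectin acetylesterase gene, were at -0.51 and -0.49.

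Among the 5 transporters, the differences ran from -0.67 to -0.50. AT3G11320, of the nucleotide-sugar transporter family, read 67.8 and 42.7 in the knockout and 93.3 and 98.4 in wild type, with knockout replicate 2 well below replicate 1. AT2G41190, an amino acid transporter gene, was at 31.4 and 24.1 in the knockout against 57.7 and 49 in wild type. The purine permease gene PUP15 was at 15.2 and 13.4 in the knockout against 23 and 41.2 in wild type, a difference of -0.64 that was -0.36 without wild type replicate 2. SWEET13, an exporter of sucrose, was at 75.9 and 64.3 in the knockout and at 102 and 111 in wild type (-0.51). AT4G04750, a sugar transporter gene of the major facilitator class, had tight replicates, at 74.9 and 80.9 in the knockout and 117 and 116 in wild type.

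In 3 cytoskeleton genes the differences were between -0.58 and -0.50. SP1L2, a microtubule protein of the SPIRAL1-like family, was at 58 and 67.6 in the knockout and at 101 and 102 in wild type. FU, a FUSED-type kinase of cell division in pollen, read 16 and 17.6 in the knockout and 35.5 and 27.8 in wild type on its member probe set. A second probe set named for FU read 27.2 and 24.6 in the knockout and 17.9 and 37.3 in wild type, where the groups overlap. The kinesin gene AT5G27550 was at 17 and 26.9 in the knockout against 31 and 44 in wild type. AT3G57160, to which no role is assigned here, also had a second probe set. Its member probe set read 56.4 and 47.8 in the knockout and 79.2 and 91.9 in wild type, and the second read 43.2 and 32.7 in the knockout and 35 and 49.1 in wild type, again overlapping. These were the only 2 members with another named probe set, and in both the second one did not separate the groups.

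The 10 members grouped as other enzymes, 1 of them (AT1G15330) named only for a CBS domain, ranged from -0.89 to -0.48. AT2G32030, an acyltransferase of the GNAT class, led them at 23 and 22.3 in the knockout and 58 and 53.4 in wild type (-0.89). AT2G17850, a rhodanese (sulfur transferase) gene, was at 379.6 and 374 in the knockout against 554 and 539 in wild type. Its replicates were within a few percent of each other in both groups, although the difference was only -0.52. AT5G37970, a methyltransferase gene, was at 61.4 and 62.1 in the knockout and at 99.5 and 112 in wild type. AT1G15330, a CBS domain gene, read 30.5 and 39.7 in the knockout against 50.8 and 69.4 in wild type, and AT4G29640, a cytidine deaminase gene, 14 and 17.6 in the knockout against 27.2 and 32.4 in wild type. CYP78A9, a cytochrome P450 that promotes organ growth, was at 26.6 and 14.8 in the knockout and at 40.4 and 31.6 in wild type, a gap no wider than that between the knockout replicates. The acid phosphatase gene AT4G29270, the AAA-type ATPase gene AT3G28510, the oxidoreductase gene AT5G37980 and the sugar kinase gene AT4G10260 lay between -0.52 and -0.48.

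The members with a role also include 1 single gene and a pair and a trio of relatives. AT4G29780, a relative of Harbinger transposases, ranked second of all members, at 57.5 and 62.9 in the knockout and 171 and 180.4 in wild type. It averaged 60.2 ± 3.82 in the knockout and 176 ± 6.79 in wild type (SD, n = 2 each), with tight replicates. By mean signal the knockout was 2.92-fold lower, and on the log2 scale with the pseudocount it was 2.52-fold lower. AT1G74450 and AT1G18740, which share the DUF793 domain of unknown function, differed by -0.70 and -0.64. AT1G74450 was at 149 and 185 in the knockout against 301 and 259 in wild type, and AT1G18740 at 266 and 247 in the knockout against 418 and 396 in wild type, both wider than the replicate gaps. The DC1 domain genes AT3G06990, AT1G44050 and AT1G29180 had signals of 34.3 or lower on every array. AT3G06990 was at 3.3 and 2.7 in the knockout and at 10.8 and 32 in wild type, where a single array, wild type replicate 2, lifts the gene past the minimum level. AT1G44050 was at 10.7 and 13.3 in the knockout and at 22.4 and 24.6 in wild type, and AT1G29180 read 15 and 19.9 in the knockout and 34.3 and 27 in wild type.

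**Figure D4:**
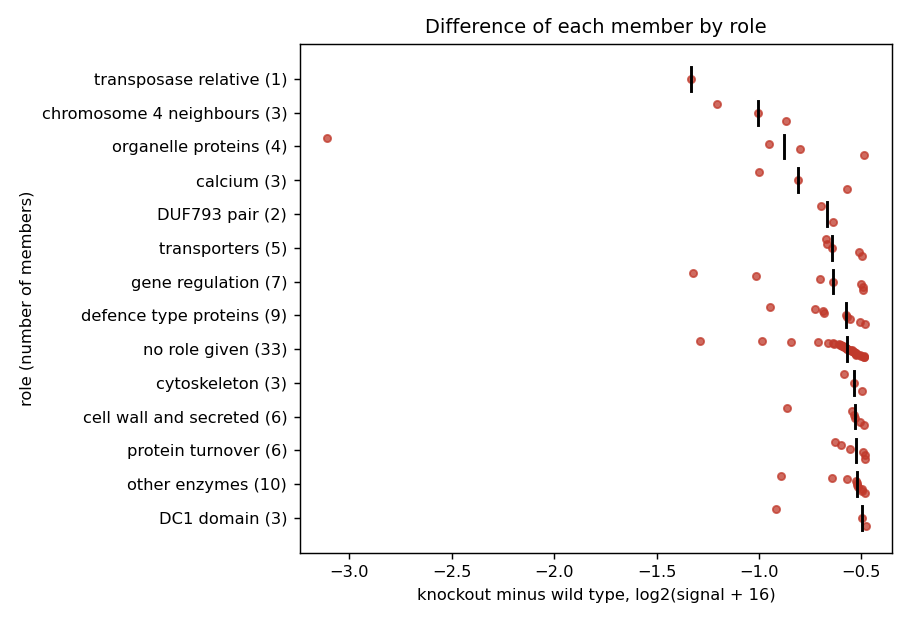
Difference of each member (horizontal axis, knockout minus wild type, log2(signal + 16)) by role, with the number of members in brackets and the median as a black bar. Apart from AT5G27280, at -3.11, the members lie between -1.33 and -0.48, and most roles hold values near the upper end of that range.

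For 33 members no role is assigned here, and 14 of these had a wild type mean under 50. Of these AT1G35210 differed most, at 33 and 26.8 in the knockout, against 82.8 and 111 in wild type (-1.29). AT5G65300 read 153 and 85.5 in the knockout and 264 and 224 in wild type, with knockout replicate 1 well above replicate 2. AT5G17350 was at 54.8 and 46.3 in the knockout against 96.6 and 109.7 in wild type and AT1G03730 at 183 and 125 in the knockout against 289 and 232 in wild type. The other 29 ranged from -0.66 to -0.49, and include AT3G57450, at 679 and 468 in the knockout and 884 and 841 in wild type. The gap between groups exceeded both replicate gaps in 10 of the 33.

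Some members are neighbours in the gene order of the TAIR10.1 assembly. How often this holds among the 8799 probe sets is not given here, so no clustering is read from it. Of 93 members that could be placed, 3 lie side by side on chromosome 4 with no protein-coding gene between them, the small protein genes AT4G27652, AT4G27654 and AT4G27657. AT4G27654 was at 95.6 and 89.6 in the knockout and at 227 and 242 in wild type, a difference of -1.21. AT4G27652 read 255 and 210.5 in the knockout, against 459 and 506 in wild type (-1.01), and AT4G27657 read 65.5 and 42.9 in the knockout against 106 and 115 in wild type (-0.87). In all 3 the groups were further apart than the replicates. The flanking gene AT4G27650 was at 108.5 and 90.2 in the knockout and at 105 and 105 in wild type (-0.08), and AT4G27660, on the other side, was at 20.7 and 24 in the knockout and at 17.7 and 17.5 in wild type (0.19). AT4G27650 thus lay near 0 with overlapping groups. AT4G27660 read slightly higher on both knockout arrays than on either wild type array, at signals close to the 30th percentile of 19.5.

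On chromosome 1, AT1G72920, AT1G72940 and AT1G72950 lie within 4 genes of each other, and the gene between the first and second of them has no named probe set. Outside them, AT1G72900 was at 310 and 241 in the knockout and at 355 and 330 in wild type (-0.31), and AT1G72890 at 224 and 172 in the knockout and at 173 and 148 in wild type (0.27). These neighbours therefore lay on both sides of 0. On chromosome 5, AT5G37970 and AT5G37980 are adjacent. AT5G37980 was at 44.3 and 39.2 in the knockout and at 63.1 and 65.9 in wild type, and the next gene, AT5G37990, at 624 and 627 in the knockout and at 731 and 742 in wild type (-0.23). BETA-VPE and AT1G62770 are separated by 5 protein-coding genes. Neighbouring genes of one family can share sequence, and what related transcripts add to these probe sets was not tested.

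**Figure D5:**
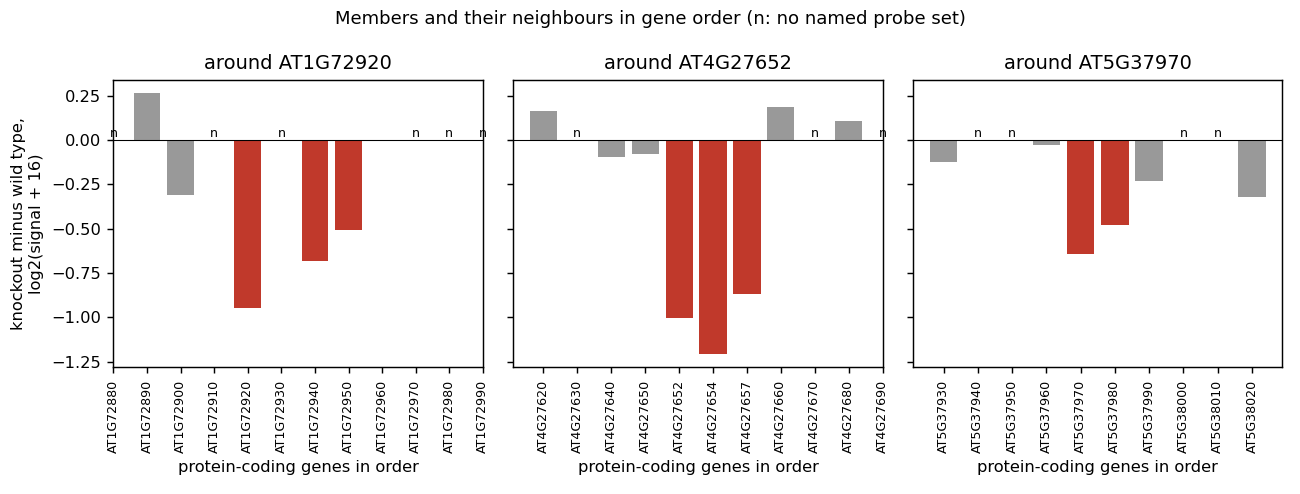
Difference (vertical axis, knockout minus wild type, log2(signal + 16)) of genes in chromosome order around 3 places where members are neighbours, with members in red, other named genes in grey, and n where no named probe set was found. The red bars reach -1.21 around AT4G27652, -0.95 around AT1G72920 and -0.64 around AT5G37970, while the grey bars lie between -0.32 and 0.27.

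By chromosome, 32.6% of the members lie on chromosome 1, 17.9% on chromosome 2, 12.6% on chromosome 3, 16.8% on chromosome 4 and 17.9% on chromosome 5. The shares of the 8799 probe sets were 25.9%, 14.7%, 20.0%, 14.6% and 23.6% in the same order of chromosomes. No test was made of these shares.

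The replicates of a group were compared by which array was the more extreme. In wild type, replicate 2 was the higher array for 61 of 95 members (64.2%). This share was 57.2% for the 8799 probe sets and 58.1% for the 1609 with the same order. In the knockout, replicate 2 was the lower array for 50 members (52.6%), beside 52.1% of the 8799 and 47.4% of the 1609. The first share was above both backgrounds. The second was close to that of the 8799 and above that of the 1609, and no difference was tested.

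Pathway lists could be followed only in part, since 11 of their 138 genes had a named probe set and 10 were bright enough for the fit. Over the whole array, 13513 of 22746 probe sets named 1 gene, a larger share. A listed gene without a named probe set may still be on the array. Of the 10, 8 were below 0 and 2 above, and 54% of all 15924 tested probe sets were below 0. At an adjusted p of 0.05 in limma 2 were called lower, beside 0.151% of all tested probe sets, and 0 higher, and 3 passed an unadjusted p of 0.05, 0 of them higher. Both called genes, STZ and AT4G27280, are members that the same contrast chose, so nothing is read from these counts. In the list of touch and calcium genes, which holds AT4G27280, 4 of 9 could be tested and had a median of -0.37. In the list of rapid wound and touch transcription factors, which holds STZ, 3 of 30 could be tested, with a median of -0.11. Of the 9 abscisic acid and cold genes 3 could be tested, with a median of 0.16. The median over all tested probe sets was -0.01. AT4G27280 and STZ, chosen by the same contrast, enter their list medians, and the lists were chosen with earlier results known. Nothing is therefore read from these medians. None of the listed Polycomb subunits, Polycomb-silenced developmental genes, jasmonate, salicylic acid, ethylene, CBF or elicitor response genes had a named probe set. Beyond named genes, 71 of the 9233 probe sets with no gene or several met the same level, order and size of difference, 12 of them at -1 or below, and these are not described here.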

How the data were processed

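The deposited table holds 1 linear intensity per probe set and array for 4 arrays. The authors made these signals with MAS5, per the submitters' processing notes; its version and settings are not stated there. Signals were used as deposited. The 64 control probe sets were set aside. Differences are on the log2(signal + 16) scale computed from the deposited intensities. The members and lists were chosen with earlier results of these data known. Role groups were assigned by hand from textbook knowledge. Gene names came from the platform's annotation, which can be old, and from RefSeq for TAIR10.1. Coordinates are left out because no source used here names the build of the array design.

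The whole-array fit used limma 3.58.1 in R 4.3.3 (lmFit, eBayes with intensity trend, two-sided) on 15924 probe sets at or above the 30th percentile of mean signal. On simulated data with 15924 probe sets, made for the same comparison, it recovered 8% of changes of 0.5, 86% of 1, 96% of 1.5 and 100% of 2 on the log2 scale. Of its 151 calls there, 6 were false. The simulated noise was independent between arrays, with variances drawn from the model's own fit. These rates hold for such noise and may not hold for the real arrays. With 2 arrays per group an exact permutation test cannot go below p = 0.333. Array values were given for the first 25 members by rank and the first 4 of each role group. AT1G14480, AT1G72950, AT2G17850, AT2G20142, AT3G52800, AT3G57160, AT3G57450, AT4G04750, AT5G37980, AT5G59450, CYP78A9 and NRPE7 were added after their values were seen. Alternatives were quantile normalization, median centring, pseudocounts 1 and 64, other filters, no trend, replicate blocks, a higher wild type minimum, and each array left out.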

Additional observations from a re-analysis of the deposited data

Results flagged for a closer look

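2 of the array's own control probe sets above the brightness limit had higher signals on each knockout array than on either wild type array. The 25S ribosomal RNA control was 2.28-fold higher by mean signal and the older actin 5′ control 1.5-fold higher. No group was large enough for a test of single arrays that stand apart.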

How the results depend on the processing

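The rule put both knockout signals below both wild type signals, so the sign of a member's difference could not turn with another pseudocount or with an array left out. Under quantile normalization and median centring all 95 stayed below 0. The median of the members was -0.57 with all arrays, -0.54 after median centring, -0.78 with a pseudocount of 1 and -0.35 with 64, and -0.62 to -0.57 with 1 array left out. Which genes are members depended more on the choices. Repeating the rule kept 61 of the 95 with a pseudocount of 64, 61 with a wild type minimum of 50, and 43 to 48 with 1 array left out (48 when it was a knockout array and 43 when it was a wild type array). It kept 66 when the genes were ranked by the smallest gap between the groups, an alternative added after seeing the data. In limma, the whole array gave 51 calls and the members 10. With no filter, 1081 of 22746 probe sets had an unadjusted limma p under 0.05, and so did 80 of the 95 members. The same contrast chose these members, so nothing is read from the 80. After adjustment both counts of calls were 0 with no filter. With 1 array left out they were 20 to 87 and 4 to 17. With the replicate number as a block they were 89 and 17. No label ties the replicate numbers to a batch. Replicate differences of the groups correlated at -0.301 across tested probe sets, and what lies behind this correlation was not tested. With crossed pairs, added after seeing the data, the counts were 195 and 39. Of 376 single values of 47 named members, 312 moved by no more than 1 SD of the replicates, pooled over the groups. With 2 arrays per group, leaving 1 out cannot move a value by more than this SD. Those values were bound to stay within it, and the 64 that moved came from other settings. Stability is therefore not read from this count. The cause of these shifts was not tested. The motif search in promoters was not run, since no promoter sequence was used here. Precision is limited by 2 arrays per group.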
